A study of Drosophila melanogaster with 30 samples.

Results

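Chromosome 4 is the smallest chromosome of Drosophila melanogaster, and all its GATC fragments (the stretches between neighbouring GATC sites) were taken from the 15 deposited profiles of CrebB binding. They numbered 3593 of 383654 fragments, against 62464 on arm 2L, 78640 on arm 3L and 87900 on arm 3R, the arms used for comparison. The gene table placed 114 genes on the chromosome, of which 80 were protein-coding, 14 lncRNA, 10 antisense RNA, 7 pseudogenes, 2 miRNA genes and 1 snoRNA gene, and all 114 had a value.

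Chromosome 4 is known as the dot chromosome. Much of it carries repeats and marks of heterochromatin, including methylated histone H3 and the protein HP1a, and yet many of its genes are transcribed and are served by a protein of their own, POF. It holds genes that are well known in the brain, among them both Pax6 genes, eyeless and twin of eyeless, the memory kinase CaMKII and the vesicle priming factor unc-13. CrebB is the fly homologue of CREB, a transcription factor that is needed for long-term memory.

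Each profile came from Targeted DamID, in which the DNA adenine methyltransferase Dam is expressed alone or fused to CrebB (Dam::CrebB) and marks GATC sites near the places it reaches. Both transgenes were driven by mb247-Gal4, which is active in the neurons that form the mushroom body lobes (α, β and γ), and tub-Gal80ts held them off until flies were moved to 29°C, so every group carried the same driver and repressor. The 5 groups of 3 replicates were naive flies, which were not trained, and flies in which odor and sucrose were given apart (unpaired) or together (paired), with Dam induced from 3 h before training to 24 h after it (TI-1) or from 24 h to 48 h after it (TI-2). The labels of the naive flies give no induction interval. DNA came from 50 to 100 heads per sample, and the transgenes are made to be expressed at a very low level. A fragment's value is the log2 ratio of Dam::CrebB to Dam-only reads: above 0 it was methylated relatively more by the fusion, below 0 relatively more by Dam alone. The ratio is not expression, RNA was not measured here, and so the labelled cells were not checked against marker RNA. A value averages over all Dam-expressing cells, and a large difference in few cells cannot be told apart from a small one in many. The study gives an average number of reads per sample, but the depth of each profile was not among the values used here.

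One profile stood apart before any comparison. Over the fragments of chromosome 4, paired TI-1 replicate 3 correlated with the 11 profiles other than the replicate 3 profiles of trained flies at r between -0.039 and 0.12, whereas those 11 correlated with each other at r between 0.72 and 0.96 (median 0.89). The other replicate 3 profiles of trained flies were intermediate, with a median r of 0.69 in unpaired TI-1, 0.65 in unpaired TI-2 and 0.70 in paired TI-2. The same order held on the arms, where paired TI-1 replicate 3 had a median r of -0.00074. These r values are descriptions across fragments that share a genome, not tests. The tests of chromosome 4 against the arms, the gene calls of the 15-profile fit and the differences between groups are therefore also given without them.

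In the mean over fragments, chromosome 4 lay below 0 while the arms lay above it. The mean log2 ratio over its fragments was -0.14, -0.18 and -0.094 in the naive replicates, -0.0097, -0.12 and -0.035 in unpaired TI-1, -0.15, -0.077 and -0.10 in paired TI-1, -0.13, -0.028 and 0.052 in unpaired TI-2 and -0.067, -0.11 and -0.31 in paired TI-2. Over arms 2L, 3L and 3R together the same means were 0.046, 0.039 and 0.10 in naive flies, 0.16, 0.10 and 0.079 in unpaired TI-1, 0.10, 0.079 and 0.50 in paired TI-1, 0.06, 0.14 and 0.043 in unpaired TI-2 and 0.13, 0.077 and 0.18 in paired TI-2. Chromosome 4 was therefore the lower in 14 of 15 profiles, and unpaired TI-2 replicate 3, at 0.052 against 0.043, was the exception.

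**Figure D1:**
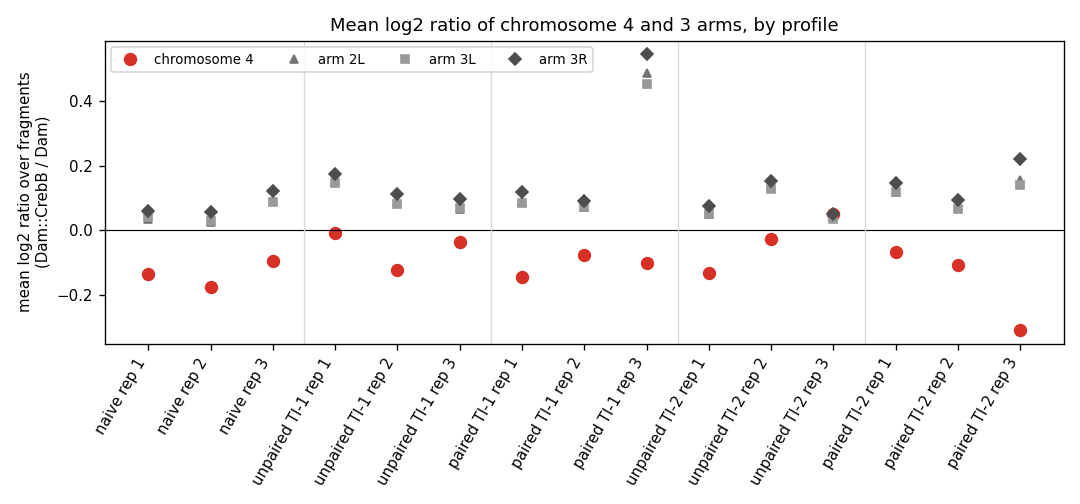
Mean log2 ratio (Dam::CrebB over Dam) over all GATC fragments of chromosome 4 (red circles) and of arms 2L, 3L and 3R (grey symbols) in each of the 15 profiles, 3 replicates per group. Chromosome 4 lies below 0 in 14 of the 15 profiles, and the 3 arms lie close to each other and above 0.

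The difference between chromosome 4 and the arms was -0.22 ± 0.14 (SD, n = 15 profiles), with an exact sign permutation test over profiles, two-sided, giving p = 0.00012. It ranged from -0.60 in paired TI-1 replicate 3 to 0.0089 in unpaired TI-2 replicate 3. In naive flies the 3 differences were -0.18, -0.21 and -0.20, a spread far smaller than the difference itself. Without the 4 replicate 3 profiles of trained flies it was -0.19 ± 0.025 (n = 11, 11 of 11 below 0, exact p = 0.00098), the smallest p that 11 profiles allow. Against single arms it was -0.21 for 2L, -0.21 for 3L and -0.24 for 3R. With the median over fragments in place of the mean, the difference over 15 profiles was smaller, at -0.085 (exact sign permutation p = 0.00012). In the naive replicates the medians were -0.084, -0.13 and -0.093 on chromosome 4 and 0 on the arms. The profiles came in files of 2 formats, with and without "chr" in the chromosome names, and naive flies lay only in the first. The difference of means was -0.19 ± 0.042 in the 7 profiles of the first format and -0.25 ± 0.20 in the 8 of the second. In each, 7 were below 0 and the exact p was 0.016.

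Both sides of the distribution differed. In naive flies, 9.94%, 13% and 15.5% of chromosome 4 fragments were above a log2 ratio of 0.2, the threshold used in the study, against 16.5%, 20.1% and 22.4% of the arm fragments. Below -0.2 lay 34.7%, 44.1% and 40.2% of chromosome 4 fragments against 12.9%, 22.3% and 18.3% on the arms. Over the 15 profiles the share above 0.2 differed by -9.45 ± 5.51 percentage points on chromosome 4 (below 0 in 15 of 15 profiles, exact p = 6.1e-05, the smallest possible). The share below -0.2 was higher by 19.6 ± 9.80 points (14 of 15 profiles, exact p = 0.00018). The exception was again unpaired TI-2 replicate 3, at -7.42 points, and unpaired TI-1 replicate 3 was the next smallest, at 3.65 points. Without the 4 replicate 3 profiles of trained flies the shares differed by -7.60 ± 1.09 and 21.8 ± 3.07 points, in 11 of 11 profiles each (exact p = 0.00098 each).

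A part of the single fragments kept the same side in most profiles. On chromosome 4, 706 fragments (19.6%) were below -0.2 in at least 12 of the 15 profiles, against 4.73% of the arm fragments. Above 0.2 in at least 12 were 216 (6.01%), against 12.6% on the arms. In all 15 profiles, 33 fragments of chromosome 4 (0.918%) were below -0.2, against 0.114% on the arms, and 25 (0.696%) were above 0.2, against 3.82%. At exactly 0 in every profile were 253 fragments (7.04%) of chromosome 4 and 8.34% of the arm fragments.

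The deficit of chromosome 4 was wider inside its longer genes than between genes. Fragments outside genes averaged 0.021 ± 0.048 on chromosome 4 and 0.031 ± 0.028 on the arms in naive flies (SD, n = 3). In genes of 5 to 20 kb the means were -0.20 ± 0.041 and 0.10 ± 0.040, and in genes over 20 kb -0.16 ± 0.049 and 0.094 ± 0.041. Over all 15 profiles the difference between chromosome 4 and the arms was -0.047 outside genes (12 of 15 below 0, exact p = 0.0097), -0.16 in genes under 5 kb (14 of 15, exact p = 0.0026), -0.31 in genes of 5 to 20 kb and -0.25 in genes over 20 kb (15 of 15 and exact p = 6.1e-05 for each). These p values changed little when adjusted over the 4 classes (highest 0.0097). Without the 4 replicate 3 profiles of trained flies the differences were -0.023 outside genes and -0.086 in genes under 5 kb (adjusted exact p = 0.019 and 0.0013) with an SD of 0.024 and 0.049, and -0.29 and -0.23 in the longer genes. The share of fragments outside genes was 18.8% on chromosome 4 and 24.0% on the arms.

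On the arms, fragments in genes of 5 kb or more were on average higher than those outside genes, by 0.068, in all but 1 profile. On chromosome 4 they were lower in all 15 profiles, by a mean of -0.17 ± 0.054. The difference between these contrasts was -0.24 ± 0.079 (15 of 15 profiles below 0, exact p = 6.1e-05), and -0.24 ± 0.040 without the 4 replicate 3 profiles of trained flies (11 of 11). It was formed after the values of the classes had been seen.

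The distance to the end of a protein-coding gene gave the position of the deficit more closely. The gene table holds no strand, so that 5′ and 3′ ends were not separated. In the first 0.5 kb inside a gene, naive flies had a mean of 0.055 ± 0.096 on chromosome 4 and 0.056 ± 0.040 on the arms. Between 0.5 and 1 kb they had 0.014 ± 0.088 and 0.031 ± 0.033. From 1 to 2 kb the means parted, at -0.17 ± 0.061 and 0.032 ± 0.035. From 2 to 5 kb they were -0.25 ± 0.050 and 0.083 ± 0.039, and farther than 5 kb from either end -0.21 ± 0.049 and 0.10 ± 0.039. Over the 15 profiles the first 0.5 kb and the next 0.5 kb did not pass the test (-0.097 ± 0.26, exact p = 0.18, adjusted over 9 classes 0.18, and -0.12 ± 0.30, exact p = 0.11, adjusted 0.12). Paired TI-1 replicate 3 carried much of both, which were -0.040 ± 0.14 and -0.061 ± 0.17 without it and -0.025 ± 0.068 and -0.042 ± 0.071 without all 4 replicate 3 profiles of trained flies. The 3 inner classes differed by -0.25 ± 0.23, -0.34 ± 0.16 and -0.29 ± 0.10 (14, 15 and 15 of 15 profiles below 0, adjusted exact p = 0.00027, 0.00011 and 0.00011), and by -0.20, -0.32 and -0.29 without those 4 profiles (11 of 11 each).

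Outside genes the chromosomes differed by distance as well. Within 1 kb of a gene the naive mean was -0.026 ± 0.074 on chromosome 4 and 0.15 ± 0.057 on the arms, and over 15 profiles the difference was -0.21 ± 0.13 (15 of 15, adjusted exact p = 0.00011). The difference was -0.20 at 1 to 2 kb and -0.11 at 2 to 5 kb, in 15 of 15 profiles each. Beyond 5 kb the order turned, with 0.13 ± 0.053 on chromosome 4 against 0.0020 ± 0.020 on the arms in naive flies and a difference of 0.071 ± 0.093 over all profiles (13 of 15 above 0 and 2 of 15 below, adjusted exact p = 0.016). Without the 4 replicate 3 profiles of trained flies it was 0.10 ± 0.032 beyond 5 kb (11 of 11 above 0) and -0.18 ± 0.034 within 1 kb (11 of 11 below 0). These 300 fragments were few beside the 34169 of the arms, and include the 122 fragments of the last stretch of the chromosome, beyond Cadps.

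**Figure D2:**
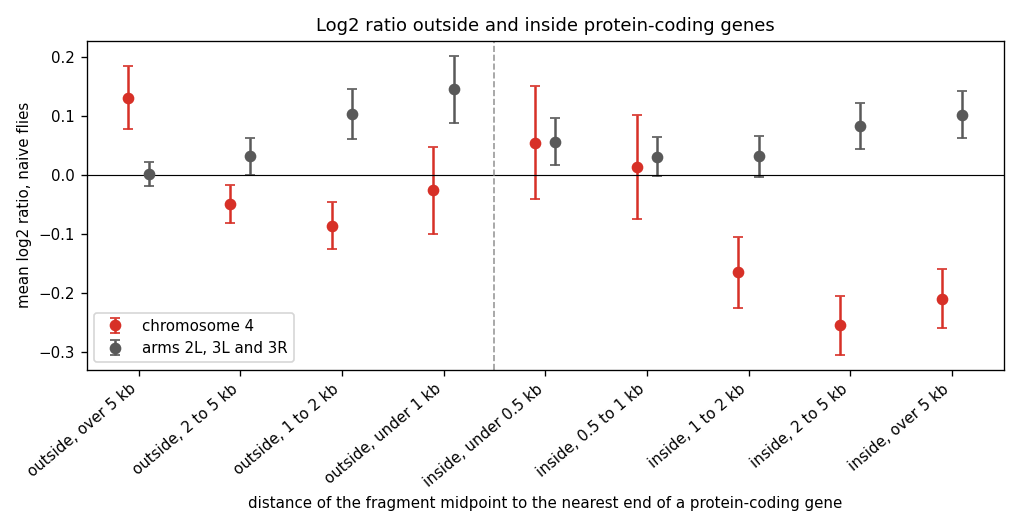
Mean log2 ratio of fragments in naive flies (points, mean of 3 replicates; bars, SD) in 9 classes of distance between the fragment midpoint and the nearest end of a protein-coding gene, outside (left of the dashed line) and inside genes. Chromosome 4 (red) and the arms (grey) lie close together in the first 1 kb inside genes and part farther inside and, with chromosome 4 again the lower, in the first 5 kb outside.

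Along the chromosome the values formed blocks. Of 27 bins of 50 kb, 21 had a naive mean below 0 and 12 below -0.2, and 5 were below 0 in all 15 profiles. The lowest, at -0.36 ± 0.047 in naive flies, held the 78 fragments between positions 1200001 and 1250000 with Mitf, Dyrk3 and the start of Cadps. A bin above 0 in the naive mean appeared 6 times. It appeared from 400001 to 450000 (0.081 ± 0.088) and from 800001 to 850000, over Sox102F and fd102C (0.044 ± 0.040, above 0 in 14 of 15 profiles). The first of these holds lgs, the start of CaMKI and a stretch between dati and lgs. In that stretch the fragment at 416808 to 417369 had a naive mean of 2.18, whereas lgs itself averaged below 0. It also appeared from 650001 to 700000 (0.018 ± 0.047, below 0 in 7 of 15 profiles). That bin holds gw, CG46466, Slip1, CG11360, myo and only the first part of ey. The next bin, with most of ey and part of bt, had 0.0089 ± 0.071 (below 0 in 5 of 15). The bin from 950001 to 1000000, with 4E-T, fuss and part of toy, had 0.063 ± 0.072 (below 0 in 4 of 15). The last bin, beyond Cadps and without a protein-coding gene, was above 0 in all 15 profiles (range 0.010 to 0.21), and 76.0% of its fragment values were exactly 0, as were 55.4% in the first bin.

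Among fragments of at least 100 bp with a value other than 0 in every profile (2104 on chromosome 4), the highest by the naive mean was at 659543 to 660596 (Release 6 coordinates), 12 bp inside the end of the gw gene. Its values were 1.55, 3.10 and 3.34 in naive flies, 3.03, 2.71 and 1.76 in unpaired TI-1, 2.16, 2.34 and -1.43 in paired TI-1, 2.66, 2.76 and 2.67 in unpaired TI-2 and 1.34, 3.26 and 1.09 in paired TI-2. It was above 1 in every profile but paired TI-1 replicate 3. The next, with naive means of 2.33 and 2.22, covered gene ends as well, that of Pur-alpha (558007 to 559386) and that of pan (68646 to 69380). The remaining pair of the 5 highest lay in no gene, at 1306250 to 1306820, beyond Cadps (2.18), and at 416808 to 417369, between dati and lgs (2.18). All 5 were above 0 in 14 profiles and below 0 in paired TI-1 replicate 3.

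The 5 lowest fragments all lay inside gene bodies. The lowest was at 99064 to 99445 in pan, 14825 bp from the nearest gene end, with values of -2.39, -3.05 and -1.70 in naive flies and below 0 in all 15 profiles (range -3.05 to -0.58). A neighbouring pair in eIF4G1, at 916533 to 916934 and 916934 to 917369, had naive means of -1.87 ± 0.35 and -1.89 ± 0.24, and a fragment of bt at 735732 to 736162 had -1.74 ± 0.37. The remaining fragment, in apolpp at 1068887 to 1069321, had -1.78 ± 0.30 in naive flies and was below 0 in 14 profiles, while paired TI-1 replicate 3 read 2.40.

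Gene values, the length-weighted mean log2 ratio of the fragments over a gene, carried the deficit into named genes. In a limma fit of all 15 profiles that averaged the 5 group means, 43 of the 114 genes of chromosome 4 were called below -0.2 at an adjusted p under 0.01, or 37.7%, against 4.5% (787) of all 17480 genes with a value. Above 0.2 were 11 of 114, or 9.65%, against 28.6% of all genes. The median gene value was -0.14 on chromosome 4 and 0.078 over all genes. This fit was added after the chromosome means were known. Its calls were 47 below and 16 above without the 4 replicate 3 profiles of trained flies (43 of the 43 and 11 of the 11 among them), where 11% of all genes were below and 29.5% above. Among the genes described below, ci (0.21) was then called above and fuss (-0.23) and Cadps (-0.21) below.

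In the naive group alone, no gene of the genome reached an adjusted p of 0.01 with limma, the lowest being 0.011. At an adjusted p under 0.05 there were 51 genes of chromosome 4 below -0.2 (44.7%, against 17.3% of all genes) and 16 above 0.2 (14%, against 28.6%). At an unadjusted p under 0.05 the counts were 52 and 19, against 3164 and 5236 of all 17480 genes. A value below 0 in all 15 profiles was found for 30 of 114 genes, or 26.3%, against 2.48% of all genes, and a value above 0 in all 15 for 8, or 7.02%, against 24.3%. The profiles differ in their general level, and centring each on the mean of the 3 arms moved the median of all genes by -0.12. Relative to the arms, 67 genes of chromosome 4 were below -0.2 and 5 above 0.2, against 15.5% and 21.4% of all genes.

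The length of its genes sets chromosome 4 apart, since its protein-coding genes have a median length of 10.1 kb against 2.10 to 2.13 kb on the 3 arms. Genes were therefore also counted within classes of length. Of genes of 5 to 20 kb, 28 of 53 (52.8%) were called below -0.2 on chromosome 4 and 30 of 1545 (1.94%) on the arms. Of genes over 20 kb, 4 of 13 (30.8%) and 3 of 633 (0.474%) were called. Of genes under 5 kb the counts were 11 of 48 (22.9%) and 498 of 8890 (5.6%). The medians of the 5 to 20 kb class were -0.21 on chromosome 4 and 0.17 on the arms.

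The genes were then read by role, in 9 lists that together held 54 of the 80 protein-coding genes. Of these 54, 27 were called below -0.2 and 4 above 0.2, with a median of -0.20 over the 15 profiles. These are 50% and 7.41% of the lists, against 37.7% and 9.65% of all genes of chromosome 4 and 4.5% and 28.6% of all genes. The lists hold protein-coding genes only, and of all 80 protein-coding genes of chromosome 4, 37 were called below and 6 above. Of the 26 protein-coding genes outside the lists 10 (38.5%) were called below and 2 (7.69%) above. All 4 genes of the lists called above were transcription factor genes of brain and eye development or the ribosomal protein gene RpS3A. In the 7 lists other than these genes' own, no member was called above 0.2.

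**Figure D3:**
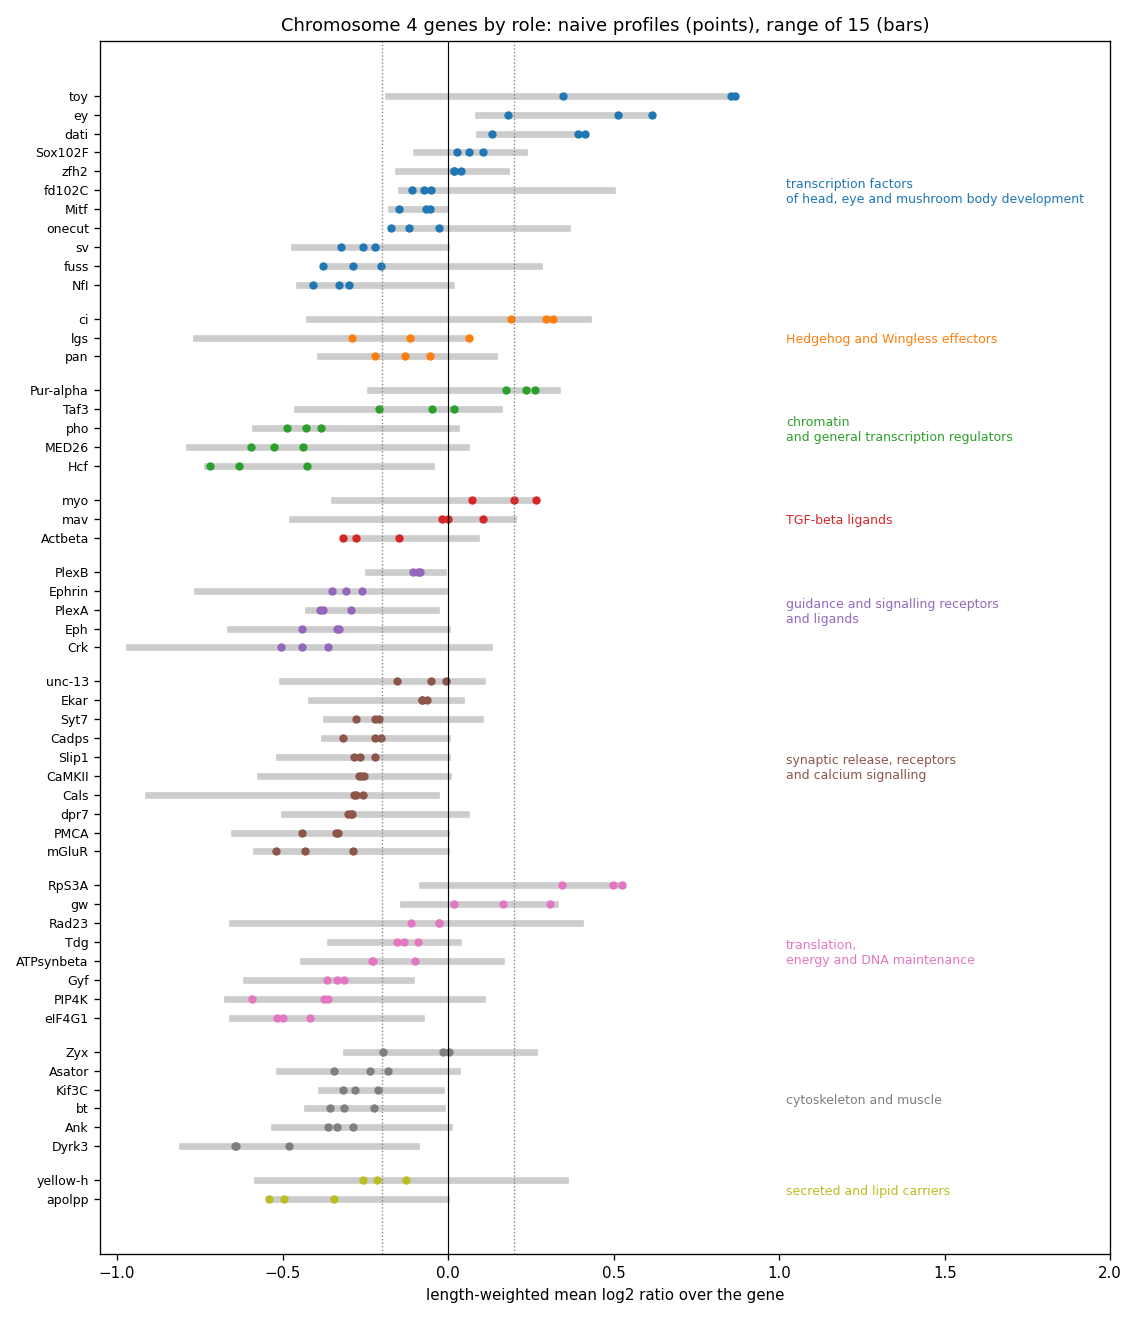
Gene values (length-weighted mean log2 ratio, horizontal axis) of 53 of the 54 chromosome 4 genes in 9 role lists. Points are the 3 naive replicates, grey bars the range over all 15 profiles, dotted lines -0.2 and 0.2. The top of the first list (toy, ey and dati) and RpS3A lie to the right, and the synaptic and guidance lists lie to the left of 0 in naive flies.

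Transcription factors of head, eye and mushroom body development formed the list with the widest range, with a median of 0.033. Of its 11 genes, 3 were called above (27.3%) and 2 below (18.2%). The share above was near the 28.6% of all genes and higher than the 9.65% of chromosome 4. The share below stands beside 4.5% of all genes and 37.7% of chromosome 4. The twin of eyeless gene toy (4:989725 to 1007922), a Pax6 gene that acts upstream of eyeless in the eye, had the values 0.35, 0.86 and 0.87 in naive flies, 0.85, 0.44 and 0.35 in unpaired TI-1 flies, 0.42, 0.39 and -0.18 in paired TI-1 flies, 0.54, 0.72 and 0.40 in unpaired TI-2 flies and 0.47, 0.55 and 0.10 in paired TI-2 flies. It was above 0 in 14 profiles, the exception being paired TI-1 replicate 3, with a mean of 0.47 (SE 0.066) in the limma fit (adjusted p = 8.4e-05). The naive replicates differed widely, at 0.69 ± 0.30, and the groups overlapped.

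The eyeless gene ey (4:697689 to 721173), the second Pax6 gene and a marker of mushroom body neurons, had 0.18, 0.51 and 0.62 in naive flies, 0.49, 0.23 and 0.24 in unpaired TI-1 flies, 0.24, 0.24 and 0.22 in paired TI-1 flies, 0.26, 0.22 and 0.20 in unpaired TI-2 flies and 0.26, 0.37 and 0.092 in paired TI-2 flies. It was above 0 in all 15 profiles and averaged 0.29 (SE 0.035), with an adjusted p of 2.9e-05 from limma. The paired TI-1 replicates lay close together, whereas naive replicate 1 was far below the other naive replicates. dati (4:375640 to 395605), a zinc finger factor of neurons, was also above 0 in all 15 profiles (range 0.092 to 0.41) and averaged 0.22 (SE 0.025) (limma adjusted p = 1.9e-05).

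Relative to the arms, toy averaged 0.35, ey 0.17 and dati 0.099, so all 3 stayed above 0, but only toy was still called above 0.2. Close to 0 were the homeodomain factor zfh2 (0.033 (SE 0.021)), the SoxD factor Sox102F (0.081 (SE 0.022)), onecut (0.037 (SE 0.029)) and the forkhead gene fd102C (-0.012 (SE 0.039)). The first 3 of these turned below 0 relative to the arms. Below 0 were NfI, a nuclear factor I gene (-0.26 (SE 0.028), limma adjusted p = 1.3e-05), and sv, a Pax2 homologue (-0.21 (SE 0.027), adjusted p = 5.6e-05), both of them called. fuss, a member of the Ski and Sno family (-0.19), and Mitf, a regulator of lysosomes (-0.093), had means above -0.2 and were not called. Without paired TI-1 replicate 3, fuss was called, at -0.22.

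**Figure D4:**
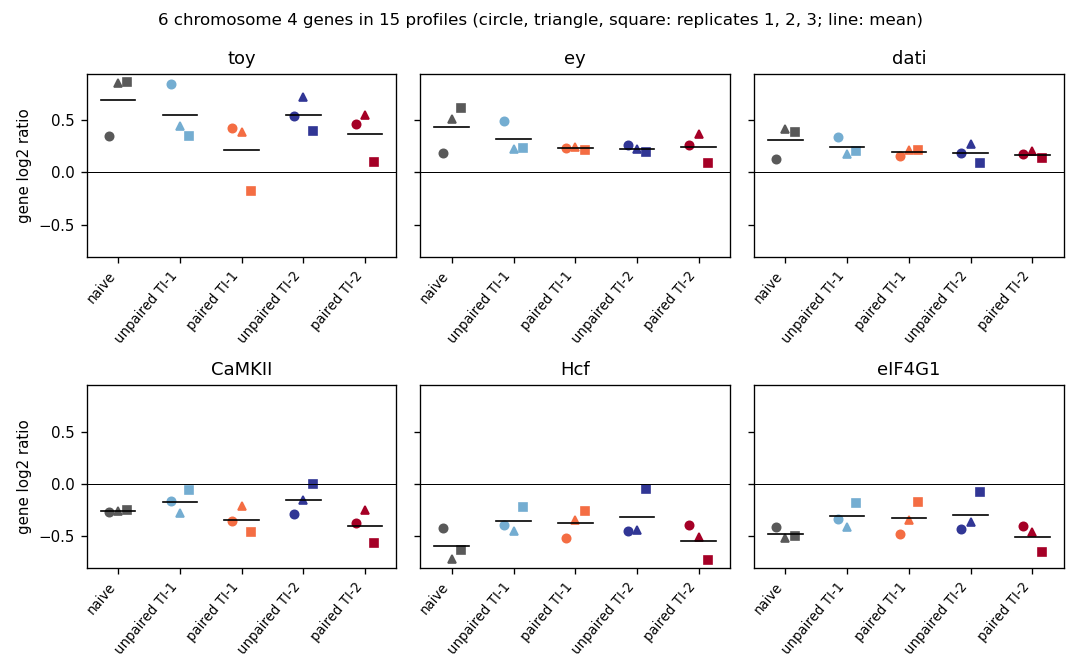
Gene values of toy, ey, dati, CaMKII, Hcf and eIF4G1 in the 15 profiles by group (circle, triangle and square, replicates 1, 2 and 3; line, group mean). The upper 3 genes lie above 0 in all profiles except toy in paired TI-1 replicate 3, and the lower 3 lie below 0 in all profiles.

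Genes of synaptic release, receptors and calcium signalling all averaged below 0, with 6 of 10 called below -0.2, 6 below 0 in all 15 profiles and a median of -0.22. The share called, 60%, stands beside 37.7% of all genes of chromosome 4, 52.8% of its genes of 5 to 20 kb and 4.5% of all genes. CaMKII (4:1035288 to 1053703), the calcium-activated kinase of synaptic plasticity, had -0.27, -0.26 and -0.25 in naive flies, -0.16, -0.28 and -0.063 in unpaired TI-1 flies, -0.36, -0.21 and -0.46 in paired TI-1 flies, -0.29, -0.16 and -0.0014 in unpaired TI-2 flies and -0.38, -0.25 and -0.57 in paired TI-2 flies. The naive replicates lay close together, and the value nearest 0 came from unpaired TI-2 replicate 3. Its mean was -0.26 (SE 0.032), with an adjusted p of 2.7e-05 from limma. mGluR, the metabotropic glutamate receptor, averaged -0.29 (SE 0.034) and was below 0 in all 15 profiles (-0.58 to -0.0051).

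PMCA, a calcium pump of the plasma membrane (-0.31 (SE 0.034)), Cals, the fly calsyntenin (-0.34 (SE 0.049)), Slip1 (-0.23 (SE 0.03)) and dpr7, a cell surface protein of the immunoglobulin family (-0.22 (SE 0.035)), were called as well. The other 4 were not called: the vesicle release factors Cadps (-0.20 (SE 0.024)), just inside -0.2, and unc-13 (-0.10 (SE 0.036)), the calcium sensor Syt7 (-0.17 (SE 0.028)) and the glutamate receptor subunit Ekar (-0.10 (SE 0.026)). In naive flies unc-13 had -0.071 ± 0.075. All 10 genes of the list were called below -0.2 when each profile was centred on the arms.

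The list of guidance and signalling receptors and ligands also held the adaptor Crk. Of its 6 genes, 5 were called below -0.2 (83.3%), with 5 below 0 in all 15 profiles and a median of -0.26. Beside this stand the same 37.7%, 52.8% and 4.5%, and 37 of the 80 protein-coding genes of chromosome 4. The receptor tyrosine kinase Eph averaged -0.28 (SE 0.037), its ligand Ephrin -0.27 (SE 0.037), and the semaphorin receptor PlexA -0.26 (SE 0.025). The second semaphorin receptor of the fly, PlexB, was nearer 0, at -0.092 (SE 0.017), and lies in the first bin, where 55.4% of fragment values were 0. The adaptor Crk had the lowest mean (-0.41 (SE 0.058)) and was above 0 in 1 profile.

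Chromatin and general transcription regulators had 3 of 5 genes called below (60%). Beside this stand 37.7% of all genes of chromosome 4, 37 of its 80 protein-coding genes and 52.8% of its genes of 5 to 20 kb. Hcf (4:359938 to 375554), the host cell factor that serves several chromatin complexes, had -0.43, -0.72 and -0.63 in naive flies, -0.39, -0.45 and -0.22 in unpaired TI-1 flies, -0.52, -0.34 and -0.26 in paired TI-1 flies, -0.45, -0.44 and -0.052 in unpaired TI-2 flies and -0.40, -0.51 and -0.73 in paired TI-2 flies. It was below -0.2 in 14 profiles and at -0.052 in unpaired TI-2 replicate 3, with a mean of -0.44 (SE 0.041) and an adjusted p of 4.7e-06 from limma. MED26, a subunit of Mediator, averaged -0.42 (SE 0.047), and pho, which binds DNA at Polycomb response elements, -0.33 (SE 0.036). The TFIID subunit Taf3 (-0.12 (SE 0.038)) and Pur-alpha, a protein that binds single-stranded nucleic acids (0.10 (SE 0.04)), were not called. Pur-alpha holds one of the highest fragments at its end, and it turned below 0 relative to the arms.

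Genes of translation, energy and DNA maintenance were split. RpS3A (4:65225 to 67207), a protein of the small ribosomal subunit, had 0.34, 0.53 and 0.50 in naive flies, 0.49, 0.19 and -0.0035 in unpaired TI-1 flies, 0.17, 0.22 and 0.039 in paired TI-1 flies, 0.26, 0.48 and 0.12 in unpaired TI-2 flies and 0.23, 0.26 and -0.079 in paired TI-2 flies. It was below 0 in unpaired TI-1 replicate 3 and paired TI-2 replicate 3, and it averaged 0.25 (SE 0.043) (limma adjusted p = 0.00044) over 5 fragments. It is not called relative to the arms (0.13). The translation initiation factor eIF4G1 was at the other end, with -0.42, -0.52 and -0.50 in naive flies, -0.34, -0.41 and -0.18 in unpaired TI-1 flies, -0.48, -0.34 and -0.17 in paired TI-1 flies, -0.43, -0.37 and -0.082 in unpaired TI-2 flies and -0.40, -0.46 and -0.65 in paired TI-2 flies. It was below 0 in all 15 profiles and averaged -0.38 (SE 0.035). Gyf (-0.34 (SE 0.032)), the lipid kinase PIP4K (-0.30 (SE 0.045)) and ATPsynbeta, a subunit of ATP synthase (-0.24 (SE 0.04)), were called below as well. The miRNA silencing factor gw (0.14 (SE 0.036)), the DNA repair protein Rad23 (-0.047 (SE 0.059)) and the DNA glycosylase Tdg (-0.15 (SE 0.026)) were not called.

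The remaining lists held few genes. Of 6 genes of cytoskeleton and muscle, 5 were called below (83.3%). Beside this stand 37.7% of all genes of chromosome 4, 37 of its 80 protein-coding genes and 52.8% of its genes of 5 to 20 kb. The lowest was the kinase Dyrk3 (-0.46 (SE 0.04)). The others were ankyrin (Ank, -0.25), the titin-like projectin gene bt (-0.21), Asator (-0.22) and the kinesin Kif3C (-0.20), which lay at the threshold. The zyxin gene Zyx averaged 0.019. Of the lipid carrier apolpp and yellow-h, apolpp was called (-0.29 (SE 0.033)) and yellow-h was not (-0.13 (SE 0.062)).

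Of the Hedgehog and Wingless effectors, lgs, which links beta-catenin to its coactivator, was called below (-0.27 (SE 0.045)). The Hedgehog effector ci (0.12 (SE 0.061)) and the Wingless effector pan (-0.14 (SE 0.032)) were not called, and ci was at -0.0037 relative to the arms and at 0.21, called above, without the 4 replicate 3 profiles of trained flies. None of the TGF-beta ligands Actbeta (-0.13 (SE 0.026)), mav (-0.018 (SE 0.044)) and myo (0.071 (SE 0.043)) was called.

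Over all protein-coding genes, inside and outside these lists, the lowest by naive mean among those with at least 5 fragments were CG33521 (-0.62 ± 0.11, SD, n = 3), Hcf (-0.59 ± 0.15), Dyrk3 (-0.59 ± 0.094), the small GTPase gene Arl4 (-0.54 ± 0.16) and MED26 (-0.52 ± 0.079). The highest were CG46466 (0.69 ± 0.36), toy, RpS3A (0.46 ± 0.10), ey and dati. CG46466 was above 0 in 13 profiles and at -1.03 and -0.70 in replicate 3 of paired TI-1 and paired TI-2, and it was not called (adjusted p = 0.053 from limma). It was called above without paired TI-1 replicate 3 (0.40) and without the 4 replicate 3 profiles of trained flies (0.48). The highest genes of any kind in the 15-profile fit were 2 short RNA genes at the dati to lgs interval. asRNA:CR44027, which overlaps the end of dati, averaged 1.11 (SE 0.14) over 4 fragments and lncRNA:CR43437 0.80 (SE 0.082) on 1 fragment. Of the 114 gene models, some overlap each other and share fragments, as dati and asRNA:CR44027, Rnf11 and PMCA, or sv and Cals do.

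The comparison of paired with unpaired flies asks whether CrebB binding changed with the association of odor and sugar. At the level of the chromosome no difference was found. Relative to the arms, the paired mean minus the unpaired mean was -0.17 in TI-1 (-0.33 ± 0.23 against -0.17 ± 0.052, exact permutation test, two-sided, p = 0.30, adjusted over 7 comparisons 0.70). In TI-2 it was also -0.17 (-0.29 ± 0.17 against -0.12 ± 0.11, exact p = 0.20, adjusted 0.70). An exact permutation test of 3 against 3 cannot go below p = 0.10. Replicate 3 decided both values: the differences of replicates with the same number were -0.075, 0.063 and -0.48 in TI-1 and -0.00095, -0.018 and -0.49 in TI-2. Without replicate 3 they were -0.0062 and -0.0094. The effects of the intervals differed by 0.0049 (exact p = 0.90). In TI-1, paired replicates 2 and 3 came in the file format without "chr", and all unpaired replicates in the format with it. Format and training cannot be told apart in those pairs.

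Against naive flies the trained groups differed by 0.030 (unpaired TI-1), 0.080 (unpaired TI-2), -0.14 (paired TI-1) and -0.091 (paired TI-2), with exact permutation p of 0.50, 0.20, 0.50 and 0.70 and no adjusted value below 0.70. Replicate 3 decided these values too: without it they were 0.0045, 0.017, -0.0017 and 0.0076. These 4 comparisons share the naive profiles. All TI-2 profiles came in the file format without "chr" and all naive profiles in the format with it, so format and group cannot be told apart there. Paired TI-1 replicates 2 and 3 also came without "chr", so format enters the comparison of paired TI-1 with naive flies as well.

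At the level of genes, no gene of chromosome 4 was called between paired and unpaired flies by limma, run on the 3 same-numbered differences, at an adjusted p under 0.01, and no gene of the genome was. In TI-1 the lowest adjusted p on chromosome 4 was 0.84, and 3 genes (2.63%) had an unadjusted p under 0.05 with a difference beyond 0.2, all lower in paired flies, against 1.03% of all genes. They were ND-49, a subunit of respiratory complex I, and the antisense genes asRNA:CR44027 and asRNA:CR45126. In TI-2 there were 0 on chromosome 4 against 0.572% of all genes. Without replicate 3 the counts were 4 in TI-1 and 0 in TI-2. Over all 17480 genes there were then 127 higher and 967 lower in TI-1 and 112 higher and 117 lower in TI-2. The share on chromosome 4 was thus below that of all genes in both intervals. Among genes with at least 5 fragments, those with the smallest p in TI-1 were ND-49, with a difference of -0.30 (SE 0.090), toy, with -0.33 (SE 0.14), and CG46466, with -0.60 (SE 0.28). Their limma adjusted p was 0.84 each. In TI-2 they were Pur-alpha, with -0.20 (SE 0.068), toy, with -0.18 (SE 0.076), and CG1909, with -0.21 (SE 0.092), at a limma adjusted p of 0.89 each.

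**Figure D5:**
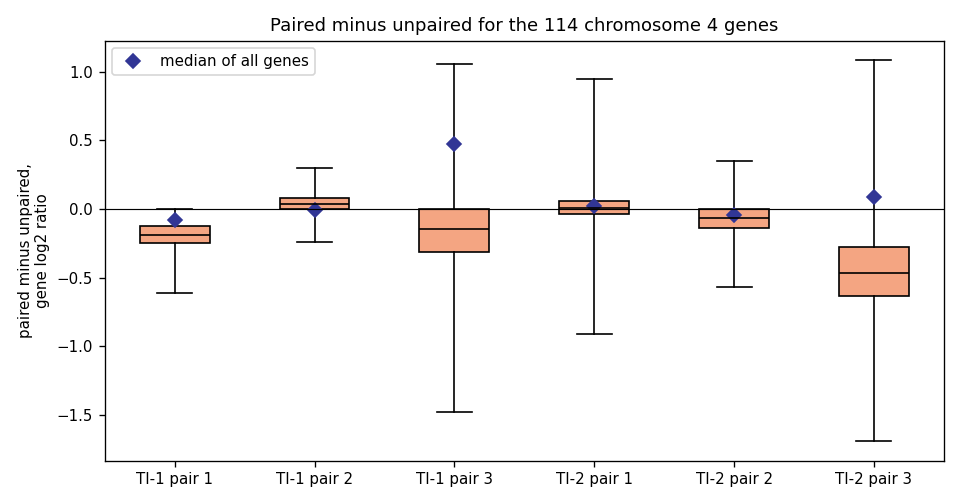
Paired minus unpaired gene value for the 114 genes of chromosome 4 in each pair of same-numbered replicates (box, quartiles and median; whiskers, lowest and highest), with the median of all genes as diamonds. The median of chromosome 4 lies far below that of all genes in pair 3 of both intervals and near it in the first pair of TI-2.

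The pairs did not show one direction. The median difference of chromosome 4 genes was -0.19, 0.038 and -0.14 in the 3 pairs of TI-1, where the median of all genes was -0.078, -0.0042 and 0.47. In TI-2 it was 0.010, -0.067 and -0.46, against 0.021, -0.046 and 0.087. Chromosome 4 thus lay away from the rest of the genome mainly in the third pairs. Lower in paired flies in all 3 pairs were 21 genes of chromosome 4 in TI-1 (18.4%, against 10.1% of all genes) and 24 in TI-2 (21.1%, against 8.87%). Higher in all 3 pairs were 0 (against 10.3%) and 1 (0.877%, against 8.6%). The part of the third pairs in these counts was not tested.

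For ey and dati the differences were smaller than their errors. ey differed between paired and unpaired flies by -0.086 (SE 0.11) in TI-1 and 0.012 (SE 0.080) in TI-2, and dati by -0.042 (SE 0.10) and -0.013 (SE 0.062). CaMKII differed by more than its error, by -0.17 (SE 0.14) and -0.25 (SE 0.14), but was not called, with adjusted limma p of 0.84 and 0.89. Its pair differences ranged from 0.071 to -0.57, and those farthest from 0 were from the third replicates.

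Against naive flies, no gene of chromosome 4 was called in any of the 4 comparisons, where the lowest adjusted p over its genes lay between 0.33 and 0.70 (limma). Unadjusted, 8 genes (7.02%) passed in unpaired TI-1, against 7.79% of all genes, and all 8 were higher than in naive flies. Over all genes 1288 were higher and 74 lower. The direction moved with the setting: on chromosome 4 there were 1 higher and 2 lower when each profile was centred on the arms, 11 higher and 13 lower without replicate 1, 3 higher without replicate 2 and 0 without replicate 3. Over all genes the same settings gave 687 higher and 313 lower, 1741 and 1624, 613 and 24, and 927 and 26. The 8 genes included mGluR (0.22, SE 0.082), Crk (0.20, SE 0.077), PIP4K (0.26, SE 0.094), Dyrk3 (0.26, SE 0.094) and apolpp (0.23, SE 0.076). The smallest p among genes with at least 5 fragments was that of CG31999 (0.16, SE 0.049, limma adjusted p = 0.33), followed by PlexA (0.16, SE 0.053) and apolpp.

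In paired TI-1 flies 4 genes (3.51%, against 1.99%) passed unadjusted, among them RpS3A (-0.31, SE 0.091) and ND-49 (-0.39, SE 0.12), at a limma adjusted p of 0.54 each. The pseudogene CR43361, within unc-13, was next (-0.40, SE 0.16). In unpaired TI-2 flies 3 genes (2.63%, against 6.48%) passed, among them Eph (0.23, SE 0.084) and apolpp (0.26, SE 0.095). Actbeta had the smallest p of the genes with at least 5 fragments (0.17, SE 0.063, limma adjusted p = 0.48). In paired TI-2 flies 2 genes (1.75%, against 3.2%) passed, CG11076 (-0.25, SE 0.078) and RpS3A (-0.32, SE 0.11). onecut (0.17, SE 0.055) and ATPsynbeta (-0.18, SE 0.063) followed CG11076 in the order of p, and the limma adjusted p was 0.70 for each of these. The share was above that of all genes in paired TI-1 and below it in the other 3 comparisons, and none of the genes passed the adjusted test. Without replicate 3 the counts were 0 in paired TI-1, 0 in unpaired TI-2 and 1 in paired TI-2. Over all genes there were then 555 higher and 140 lower, 178 and 119, and 357 and 97, in the same order. The share on chromosome 4 was thus below that of all genes in each, paired TI-1 included.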

How the data were processed

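The authors sequenced Dam::CrebB and Dam-only libraries, used only the first read of each pair, and mapped them to Release 6.22 of the fly genome with their DamID pipeline. The deposited values are log2 ratios of Dam::CrebB over Dam-only per GATC fragment, 1 profile per replicate, normalized by the authors. The aligner's version is not given in the sources used here. Read counts were not used here, so the depth per profile is unknown. Deposited gene lists hold the authors' own calls and were not used.

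Fragments of chromosome 4 were compared with those of arms 2L, 3L and 3R within each profile, and the 15 differences were tested with exact sign permutations. Gene values are length-weighted means of the fragments overlapping a gene in RefSeq's Release 6 gene table, tested with limma 3.58.1 in R 4.3.3 over all 17480 genes with a value, with Benjamini-Hochberg adjustment. A call needed an adjusted p under 0.01 and a mean beyond 0.2. The limma steps were tested on simulated data. Replicates are called biological by the study. Named genes were those of 9 role lists, the 5 highest and 5 lowest protein-coding genes in naive flies with at least 5 fragments, the 3 smallest p values per comparison, and the 5 highest and lowest fragments of at least 100 bp. A few short RNA genes and gene pairs were named after their values were seen. Members and lists were chosen with earlier results of these data known. The alternatives were other fragment sets, weights, centring, arms and left-out replicates. Python was version 3.11.15. The values of 1 role-list gene are not reported here; it stays in the counts.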

Additional observations from a re-analysis of the deposited data

How the results depend on the processing

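Of 138 chromosome-level alternatives, 133 kept direction and side of the threshold, a p of 0.05. Those of the comparisons between groups could change direction only, since their exact p cannot go below 0.10. The share of fragments above 0.2 on chromosome 4 against the arms was -1.09 points outside genes (p = 0.52, exact) and -2.19 points in genes under 5 kb (p = 0.59, exact), no longer past the threshold. The difference from naive flies turned to 0.010 in paired TI-1 with the median over fragments (main -0.14). Leaving out each replicate in turn gave -0.15 to 0.0076 for paired TI-2 against naive flies and -0.033 to 0.045 for the difference between the intervals' effects, so both changed sign. The cause was not tested. For the classes of distance and gene length, all 28 values without paired TI-1 replicate 3 or without the 4 replicate 3 profiles of trained flies kept direction and side of the threshold.

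Of 88 alternatives for counts of called genes on chromosome 4, 79 stayed within 1.5 times. A count of 0 in both settings was taken as unchanged, as it was in every alternative of the comparisons between groups. Naive flies had 0 calls, but 42 among genes with at least 5 fragments, 63 with each profile centred on the arms, 0 to 31 when leaving out each replicate in turn (31 without replicate 1), and 67 at an adjusted p under 0.05. In the same order, the calls above and below on chromosome 4 were 4 and 38, 9 and 54, 12 and 19 (without replicate 1), and 16 and 51. Over all genes tested they were 2871 and 1355, 3509 and 2991, 3178 and 1010, and 5001 and 3016. Unpaired TI-1 had 0 calls, but 8 when centred and 21 at an adjusted p under 0.05, and unpaired TI-2 had 0, 2 and 7. Over all genes the calls above and below in unpaired TI-1 were 1965 and 1279 when centred and 4548 and 1188 at an adjusted p under 0.05. In unpaired TI-2 they were 538 and 65, and 2131 and 503. In these settings of the unpaired groups, calls in both directions together were a smaller share of chromosome 4 than of all genes. On chromosome 4 the calls above and below, in the same order, were 3 and 5, and 9 and 12, in unpaired TI-1. In unpaired TI-2 they were 2 and 0, and 6 and 1. Taken apart, the 12 below in unpaired TI-1 at an adjusted p under 0.05 were a larger share than the 1188 of all genes. The 15-profile fit had 54 calls, and 34 to 64 when leaving out each replicate in turn, with 34 without replicate 2. Of all genes, 16.3% were above and 1.43% below without replicate 2, and 28.6% and 10.7% without replicate 3. Every call that remained without replicate 1 (5 above, 33 below) or replicate 2 (4 above, 30 below) was among the 54, and no call changed direction.

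The study's labels list paired and unpaired replicates by the same number. With the replicate block the chromosome-level differences were -0.17 in TI-1 (p = 0.50, exact) and -0.17 in TI-2 (p = 0.25, exact), where 3 pairs cannot go below 0.25. For genes, the fit with no replicate block also gave 0 calls on chromosome 4. Deviations of same-numbered samples correlated at 0.54, 0.028 and 0.46 in TI-1 and at -0.12, -0.087 and -0.25 in TI-2 over all genes, and over chromosome 4 genes at 0.67, 0.17 and 0.62 in TI-1 and at -0.26, 0.13 and -0.19 in TI-2. In TI-1 the numbers thus deviated together on chromosome 4 but not in every pair over all genes. In TI-2 they did not in every pair on either. The main chromosome-level tests did not pair the samples by number. The main gene tests of paired against unpaired flies did, and the fit with no replicate block was their alternative. With 3 replicates a group, unknown depth per profile and no read counts, differences between groups below the spread between replicate 3 and the others were not detectable.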
